A study of Mus musculus with 60 samples.

Results

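Distal and proximal pieces of the embryonic mouse upper jaw (maxilla) at embryonic day E14.5 were compared over all genes. The arrays titled as distal or proximal maxilla of that day were taken, 3 of each, which are 6 of the 60 arrays of the series. All 18193 genes with a probe set of their own entered, each through the probe set of highest mean over the 60 arrays.

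The series profiled distal and proximal maxilla and mandible on Affymetrix Mouse Genome arrays, in 3 arrays for each jaw, position and age from E10.5 to E14.5. Both groups used here were C57Bl/6 embryos at E14.5, with no treatment given in the labels, and the titles place all 6 arrays in batch 2. Each array was labelled from 3 µg of total RNA. The labels call the tissue distal bone for one group and proximal bone for the other, while the titles name the maxilla, and they state neither where the pieces were cut nor whether a group's 3 arrays come from different embryos. What the p-values weigh is thus array-to-array spread, which may be technical, and 3 arrays a group limit the precision of each value.

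At this stage the mouse upper jaw is being built from neural crest mesenchyme under a covering epithelium. The palatal shelves meet, membranous bone, tooth buds and whisker follicles take shape, the skin starts to form layers, and the lining of the nose matures toward a ciliated, secreting epithelium. The trigeminal ganglion, whose sensory neurons send their axons into the maxilla, lies behind the base of the jaws, and a neuron's messenger RNA is found largely in its cell body. In bulk tissue, fewer cells of a type and less RNA per cell cannot be told apart.

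Values are log2 signals, so that 1 unit is a doubling, and all differences below are distal minus proximal. A gene counts as called where limma's adjusted p, over all 18193 genes, is under 0.05. A mean that does not exceed 4.78, which is the 25th percentile of the array where that percentile is highest, does not show that a gene is present, and a fold against such a group is given as a lower bound. Arrays of the same position correlated at 0.9972 to 0.9983 over genes, and arrays of different position at 0.9795 to 0.9808. No pair of the 6 arrays shared more than 0.295% of its values, and array medians ran from 6.138 to 6.207.

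A difference between the pieces was called for 6123 genes, which is 33.7% of those tested, 3877 higher distally (21.3%) and 2246 lower (12.3%). The numbers turn round where the change is large. At least 2-fold, 218 called genes were higher (1.2%) and 588 lower (3.23%), and at least 4-fold 22 were higher and 204 lower. The median difference of all genes was 0.05. The 3 distal arrays and the 3 proximal arrays did not overlap for 8096 genes, 44.5% of all.

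**Figure D1:**
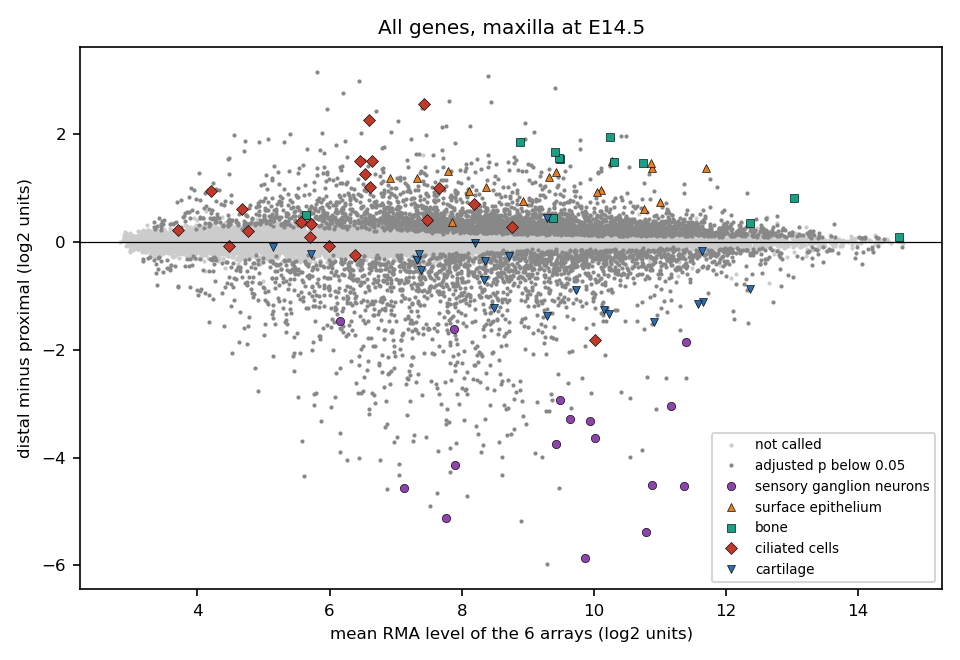
Difference between distal and proximal maxilla at E14.5 (log2 units, vertical) against the mean level of the 6 arrays (log2 units, horizontal) for all genes, with members of 5 gene lists marked. Sensory neuron genes lie down to -5.87, while surface epithelium and bone genes lie above 0.

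The genes that were lower distally by the largest amounts were mostly genes of neurons. Sncg, which encodes gamma-synuclein of peripheral neurons, was at 6.56, 6.27 and 6.07 in the distal arrays, against 12.30, 12.30 and 12.25 in the proximal arrays. The groups lay far apart, and the 63.4-fold lower level distally corresponds to a log2 difference of -5.99 (SE 0.30, adjusted p = 2.21e-22) in limma. Prph, the intermediate filament peripherin of peripheral neurons, was at 6.87, 6.91 and 7.03 in the distal arrays, against 12.80, 12.77 and 12.84 in the proximal arrays. It was 58.5-fold lower distally. Nefm and Nefl, subunits of the neurofilaments that fill axons, were 41.7-fold and 23.1-fold lower, and both remained well above 4.78 in the distal piece. Ret, the signalling receptor for ligands of the GDNF family, was at 6.41, 6.25 and 6.26 in the distal arrays, against 11.44, 11.52 and 11.49 in the proximal arrays. That is a 36.1-fold lower distal level with no overlap, which was required of the leading genes.

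Transcription factors of the sensory ganglia followed. Pou4f1, a POU homeobox factor of trigeminal and dorsal root ganglion neurons, was at 4.75, 4.998 and 4.78 in the distal arrays, against 9.48, 9.32 and 9.39 in the proximal arrays, 23.6-fold lower. Its distal mean of 4.84 was close to 4.78. Prrxl1, a homeobox factor of sensory neurons that relay pain, was 34.8-fold lower, and Onecut2 at least 8.07-fold lower. The vesicular glutamate transporter Slc17a6 was 25.2-fold lower, the nuclear neuronal protein Rbfox3 23.6-fold and the microtubule regulator Stmn3 22.8-fold. Among channel genes, Scn9a, the sodium channel of pain fibres, was at 5.09, 5.08 and 5.05 in the distal arrays, against 9.77, 9.71 and 10.44 in the proximal arrays. The third proximal array stood above the other proximal ones, and even the lowest of them was far over every distal value. Scn7a, a sodium channel relative, was at least 20.8-fold lower, Pirt, a membrane protein that modulates the heat receptor Trpv1, 34.4-fold, and Ppp1r1c, an inhibitor subunit of protein phosphatase 1, 26.1-fold.

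**Figure D2:**
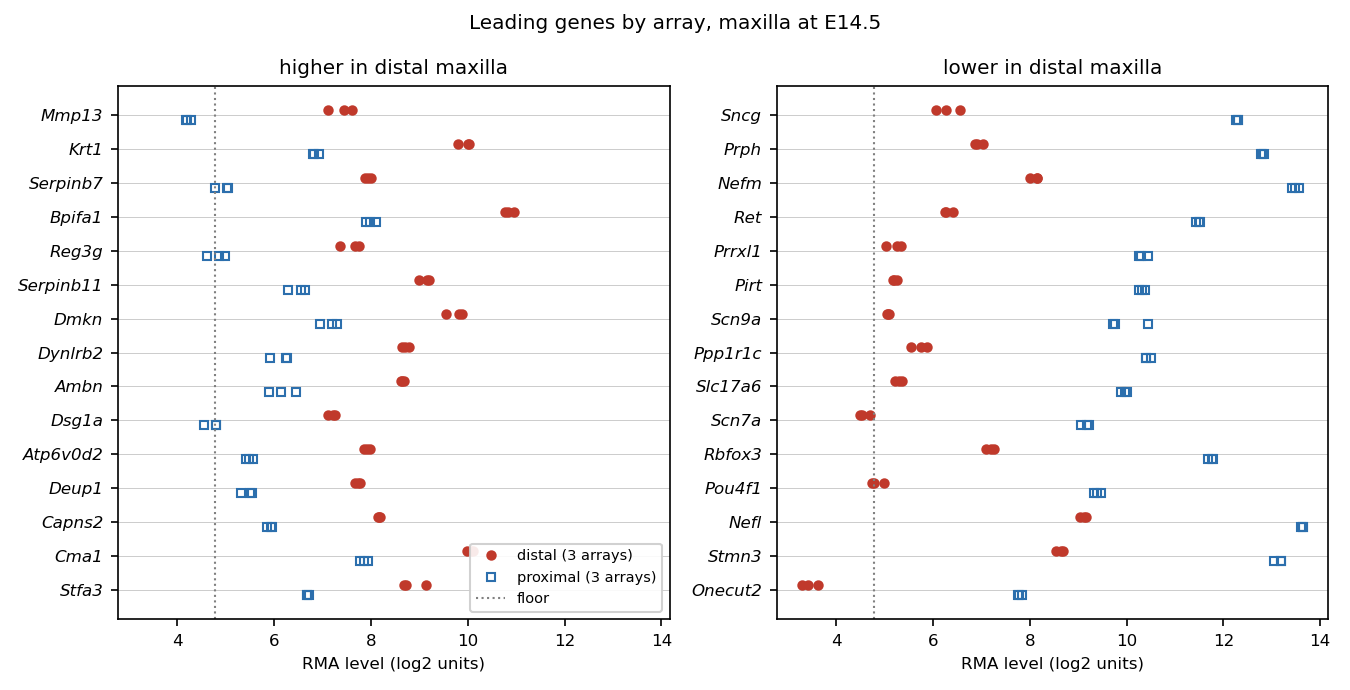
RMA levels (log2 units) of the 15 genes with the largest called difference in each direction, one point per array, with filled circles for distal arrays, open squares for proximal arrays and a dotted line at 4.78. The distal and proximal arrays of all 30 genes are apart, as the naming rule asks, and the gaps are wider on the side of the genes lower distally.

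All 16 measured markers of sensory ganglion neurons were called lower distally, against 12.3% of all genes, with a median difference of -3.70 against 0.05 for all genes. Their mean level lay between 7.55 and 7.62 in the distal arrays, against 11.24 to 11.29 in the proximal arrays. Avil, an actin-binding protein of sensory neurons, was at -4.15 and Uchl1, an abundant neuronal ubiquitin hydrolase, at -3.31. Gap43, which growing axons carry in their tips, differed less, by -1.85, with means of 10.47 distally against 12.32 proximally. Isl1, a LIM homeobox factor of sensory neurons, had means of 8.19 distally against 11.84 proximally.

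Genes that mark kinds of sensory neuron did not all behave alike: 11 of 20 were lower and 1 was higher. The pain receptors were among those lower. P2rx3, the ATP-gated channel of pain fibres, was at 5.91, 5.59 and 5.48 in the distal arrays, against 9.39, 9.29 and 9.13 in the proximal arrays. These groups were 12.2-fold apart. Trpv1, the capsaicin and heat receptor, was at least 2.89-fold lower, and Nefh, the heavy neurofilament of large fibres, at least 12.7-fold. The single member called higher was Shox2, by 0.94, a homeobox gene that marks a class of touch neurons and also the mesenchyme of the anterior palate. In all, 8 members, among them the cold receptor Trpm8 (under 4.78 in both pieces) and the mechanical channel Piezo2, did not pass the test.

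The machinery of transmitter release moved with the neuron markers. Of 25 synaptic genes, 21 were lower and none was higher, with a median of -1.60. Cplx1, a clamp of vesicle fusion, was at -2.93, and the calcium sensors Syt4 and Syt1 at -3.57 and -3.23. Of 13 neuronal ion channels 9 were lower, including the calcium channel Cacna1b at -1.93 and the potassium channel Kcna1 at -1.53. A further pair of lists was put together after the values had been seen and is a description only. Of 17 genes for neuropeptides and secretory granule proteins, 12 were lower, with galanin (Gal) at -3.37, and 1 was higher, Calcb, a calcitonin gene-related peptide, at 0.88. Of 15 genes of the neuronal cytoskeleton 14 were lower.

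Glia and autonomic markers were lower in part. Of 11 glial genes of Schwann cells and their crest precursors 8 were lower and 1 higher, the higher being Pou3f1 at 0.46. Fabp7, a fatty acid binding protein of satellite glia and their precursors, was at 8.80, 8.83 and 8.77 in the distal arrays, against 12.45, 12.63 and 12.92 in the proximal arrays. Sox10, the crest and glia factor, was lower by much less, at -1.21, with no overlap of the groups. Th, the first enzyme of catecholamine synthesis, was at 5.43, 5.38 and 5.67 in the distal arrays, against 9.32, 8.90 and 9.01 in the proximal arrays. The autonomic genes Chrna3 and Phox2a were lower by 1.34 and 0.83 log2 units, while Dbh, a later enzyme of that synthesis, differed by 0.01 (adjusted p = 0.972) and the cholinergic genes Chat and Slc18a3 were under 4.78 in both pieces. The levels of the neuron list move with these genes, and its part in their differences was not tested.

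Ligands and receptors that steer axons did not go one way. Of 28 axon guidance and adhesion genes 11 were higher and 8 lower, against 21.3% and 12.3% of all genes. The axonal adhesion molecules L1cam (-2.74), Cntn2 (-2.42) and Nrcam (-2.07) were lower, and the netrin receptor Unc5b was higher, by 0.89. Of 12 neurotrophic genes 4 were higher and 5 lower, against the same shares of all genes. All of the higher ones were ligands and all of the lower ones receptors. The receptors Ret, Gfra3 (-1.30) and Ngfr (-1.24), with Ntrk2 and Ntrk3, made up the lower side. The higher side was made of ligands, namely Ntf5 (0.95), Nrtn (0.57), Gdnf (0.53) and Artn (0.28), while the ligand Bdnf and the receptors Gfra1 and Gfra2 did not pass the test. Ntf5, which encodes neurotrophin 4, a ligand of Ntrk2, was at 7.44, 7.37 and 7.25 in the distal arrays, against 6.501, 6.35 and 6.35 in the proximal arrays.

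**Figure D3:**
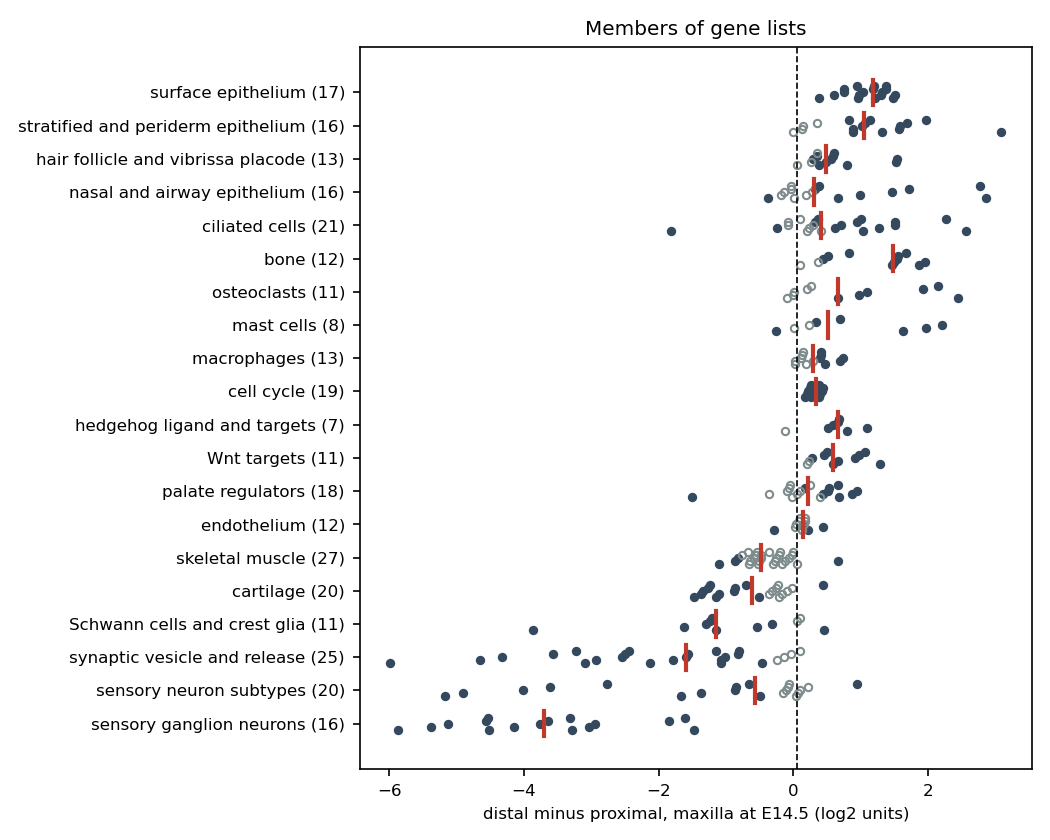
Distal minus proximal differences (log2 units) of the members of 20 gene lists, with the number measured in brackets, filled points for called members, open points for the others and a red bar at each list's median. The dashed line is the median of all genes at 0.05, and the epithelial and bone lists lie to its right while the neuronal and glial lists lie to its left.

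Genes of surface epithelium were higher in the distal piece. All 17 measured genes of surface epithelium were called higher, against 21.3% of all genes, with a median of 1.19. Their mean level lay between 9.90 and 9.96 in the distal arrays, against 8.83 to 8.87 in the proximal arrays. Perp, a desmosome protein, was at 1.48, Trp63, the master regulator of stratified epithelium, at 1.31, and the epithelial splicing regulators Esrp1 and Esrp2 at 1.21 and 1.32. General epithelial markers such as Cdh1 (E-cadherin) at 0.61 and Epcam at 0.75 were nearer to 0 than these.

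Markers of layered skin had larger differences in some members. Krt1, a keratin of the cells above the basal layer, was at 10.03, 10.001 and 9.80 in the distal arrays, against 6.83, 6.93 and 6.81 in the proximal arrays. It was 8.5-fold higher distally, a log2 difference of 3.09 (SE 0.15, adjusted p = 4.02e-23). Its partner keratin Krt10 was higher by 1.96, with means of 11.40 distally against 9.43 proximally. Of 16 genes of stratified epithelium and periderm 12 were higher and none lower, and the 4 not called were Gabrp, Sprr3, Sprr1b and Ivl, the cornified envelope precursor involucrin. Dmkn, an epidermal secreted protein, was 6.05-fold higher, and Dsg1a, the desmoglein of upper epidermal layers, at least 5.33-fold. Other leading genes included Serpinb7 at 7.94-fold and Serpinb11 at 6.18-fold, both members of the serine protease inhibitor family, Capns2, a small subunit of calpain proteases, at 4.76-fold and Stfa3, a cysteine protease inhibitor, at 4.47-fold. In a list of the granular and cornified layers put together after the values had been seen, 6 of 15 were higher and 1 lower. Krtdap was at 2.14 and Asprv1 at 1.91, and the member called lower was Cst6, at -0.48. Late markers in it did not pass: Lor (loricrin) was at -0.32 (adjusted p = 0.144), and Flg (filaggrin) was under 4.78 in both pieces.

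Of 13 genes of hair and whisker placodes 10 were higher and none was lower. Dkk4, a secreted Wnt inhibitor of placodes, was at 7.21, 7.35 and 7.26 in the distal arrays, against 5.86, 5.70 and 5.70 in the proximal arrays. The groups were 2.87-fold apart. Krt25, a keratin of the inner root sheath, was at least 1.37-fold higher, and Edaradd, an adaptor of the ectodysplasin receptor, was at 0.61.

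Of 16 nasal and airway genes 8 were called higher and 1 lower. Bpifa1, a secreted defence protein of the nasal and upper airway lining, was at 10.77, 10.95 and 10.82 in the distal arrays, against 7.98, 7.90 and 8.10 in the proximal arrays. It was 7.24-fold higher distally, by 2.86 (SE 0.14, adjusted p = 4.97e-23). Cyp2f2, an oxidising enzyme of airway secretory cells, was higher by 1.72, and Krt7 by 0.99. The secretoglobin Scgb1a1, a marker of mature club cells, was under 4.78 in both pieces, and the single member called lower was Scgb3a2, by 0.37 log2 units.

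A pair of closely related genes of antimicrobial lectins went opposite ways. Reg3g was at 7.75, 7.67 and 7.35 in the distal arrays, against 4.61, 4.99 and 4.86 in the proximal arrays. Reg3b was at 5.33, 5.69 and 5.74 in the distal arrays, against 8.14, 8.12 and 8.42 in the proximal arrays. Distal arrays were thus high for Reg3g (6.83-fold higher) and low for Reg3b (6.24-fold lower). There was no overlap in either, which was required of Reg3g as a leading gene. Binding of each transcript to the other's probes was not tested. Their promoters are shown because the genes are close relatives and were opposite in these samples. The windows, from RefSeq on build GRCm38.p6, run from 250 bases before to 50 after the annotated start, 5′ to 3′, with TATAAA on either strand in capitals. Reg3g holds it at -161 and -27 from the start and Reg3b at -29, and 9.77% of the 18109 promoter windows of the genes tested hold it. The search for this motif followed a look at the windows, and a match is a description of letters, not of use.
Reg3g, chr6:78468825-78469124, minus strand: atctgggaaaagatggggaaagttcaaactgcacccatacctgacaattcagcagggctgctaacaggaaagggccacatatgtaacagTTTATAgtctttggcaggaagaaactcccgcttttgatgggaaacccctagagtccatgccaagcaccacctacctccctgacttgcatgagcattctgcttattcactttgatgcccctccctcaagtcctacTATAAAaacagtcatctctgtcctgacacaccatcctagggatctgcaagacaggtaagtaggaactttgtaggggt
Reg3b, chr6:78370635-78370934, plus strand: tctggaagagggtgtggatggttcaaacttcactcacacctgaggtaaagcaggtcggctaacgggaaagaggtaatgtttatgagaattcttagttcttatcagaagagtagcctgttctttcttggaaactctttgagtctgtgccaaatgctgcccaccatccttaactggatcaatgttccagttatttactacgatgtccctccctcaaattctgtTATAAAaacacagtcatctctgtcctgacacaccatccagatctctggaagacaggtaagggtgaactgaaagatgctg

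Among 21 genes of ciliated cells 12 were called higher and 2 lower, with a median of 0.42. Multiciliated cells build many centrioles at once and carry beating cilia that clear the airway lining. Deup1, the scaffold of the deuterosomes on which those centrioles form, was at 7.67, 7.76 and 7.73 in the distal arrays, against 5.51, 5.31 and 5.55 in the proximal arrays. It was 4.81-fold higher, and the 3 distal arrays lay close together. Dynlrb2, a light chain of the dynein motor, was at 8.64, 8.79 and 8.70 in the distal arrays, against 6.25, 5.92 and 6.26 in the proximal arrays. Foxj1, the transcription factor of motile cilia, was at 7.18, 7.35 and 7.10 in the distal arrays, against 5.61, 5.74 and 5.75 in the proximal arrays. All 3 distal arrays were above every proximal array in each of these genes. For Deup1 and Dynlrb2 this was required by the naming rule, and 44.5% of all genes did not overlap. The difference of Foxj1 was 1.51 (SE 0.13, adjusted p = 1.74e-13), and that of Tekt1, a filament protein of the cilium's microtubules, 1.27. Ccno, a cyclin family member needed for centriole multiplication, was higher by 1.51. The members called lower were Tppp3, a tubulin-binding protein also found in nerve and tendon, at -1.82, and Ccdc40 at -0.24. The heavy dynein chains Dnah5 and Dnah9 did not pass the test and lay near or under 4.78.

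The X-box is a promoter motif bound by the RFX factors of ciliated cells, and GTTGCC is one arm of it. Of the 21 measured ciliated-cell genes 17 matched a RefSeq promoter by symbol, with 23 windows, and 12 of these (52.2%) held GTTGCC on either strand, against 12.8% of all 18109 windows. The motif was picked after several had been looked at. The windows below belong to the 4 genes of smallest p that hold it, with the match in capitals, to show where it lies in genes that were higher together. Positions counted from the annotated start are -79 in Deup1, -51 in Dynlrb2 and -219 in Ccno, while Tekt1 holds 2 copies, at -35 and -15.
Deup1, chr9:15627797-15628096, minus strand: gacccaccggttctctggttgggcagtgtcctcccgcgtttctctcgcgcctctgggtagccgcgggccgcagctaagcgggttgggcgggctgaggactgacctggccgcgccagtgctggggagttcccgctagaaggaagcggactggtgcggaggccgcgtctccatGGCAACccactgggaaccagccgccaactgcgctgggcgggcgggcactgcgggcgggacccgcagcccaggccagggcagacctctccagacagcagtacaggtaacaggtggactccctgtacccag
Tekt1, chr11:72361833-72362132, minus strand: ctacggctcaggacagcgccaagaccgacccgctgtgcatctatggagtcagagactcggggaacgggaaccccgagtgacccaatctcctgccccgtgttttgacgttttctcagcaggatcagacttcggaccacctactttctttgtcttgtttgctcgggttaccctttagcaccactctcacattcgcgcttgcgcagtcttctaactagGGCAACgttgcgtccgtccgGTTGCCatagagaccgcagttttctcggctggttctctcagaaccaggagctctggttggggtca
Dynlrb2, chr8:116504765-116505064, plus strand: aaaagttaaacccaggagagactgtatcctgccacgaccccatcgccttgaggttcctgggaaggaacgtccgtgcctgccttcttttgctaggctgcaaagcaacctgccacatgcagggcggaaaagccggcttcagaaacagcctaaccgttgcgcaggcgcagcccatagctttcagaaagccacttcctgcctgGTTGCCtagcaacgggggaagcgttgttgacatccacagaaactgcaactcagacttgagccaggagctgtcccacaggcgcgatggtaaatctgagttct
Ccno, chr13:112987552-112987851, plus strand: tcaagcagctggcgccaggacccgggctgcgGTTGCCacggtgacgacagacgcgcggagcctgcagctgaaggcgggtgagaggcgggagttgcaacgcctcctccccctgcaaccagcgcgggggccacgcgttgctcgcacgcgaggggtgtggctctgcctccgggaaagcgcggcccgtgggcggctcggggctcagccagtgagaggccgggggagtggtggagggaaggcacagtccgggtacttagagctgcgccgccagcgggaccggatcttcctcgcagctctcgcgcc

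Bone genes were checked first against the tissue label. The bone matrix genes Ibsp and Col1a1 were far above 4.78 in both pieces, with Ibsp at 13.45 distally against 12.63 proximally and Col1a1 at 12.55 distally against 12.19 proximally, but markers of epithelium (Krt15), neurons (Nefl) and muscle (Actc1) were far above 4.78 too, with Krt15 at 12.38 distally against 11.00 proximally, Nefl at 9.10 distally against 13.63 proximally and Actc1 at 13.43 distally against 13.59 proximally. Of 12 measured bone genes 10 were higher distally and none lower, with a median of 1.48. Sp7, the transcription factor that commits cells to bone, was at 10.24, 10.25 and 10.29 in the distal arrays, against 8.75, 8.78 and 8.62 in the proximal arrays. It was 2.91-fold higher. Phex, an enzyme of mineralising cells, was at 9.86, 9.82 and 9.76 in the distal arrays, against 8.10, 7.89 and 7.86 in the proximal arrays, and Omd, a keratan sulphate proteoglycan of bone, and Ifitm5, a membrane protein of osteoblasts, were higher by 1.67 and 1.47. Dmp1, a matrix protein of late osteoblasts and osteocytes, was at 11.14, 11.30 and 11.22 in the distal arrays, against 9.28, 9.21 and 9.31 in the proximal arrays. The collagen genes of the bone matrix did not pass the test, with Col1a1 at 0.36 (adjusted p = 0.248) and Col1a2 at 0.09 (adjusted p = 0.553).

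Mmp13, the collagenase of mineralising tissue, was among the leading genes higher distally. It was at 7.45, 7.61 and 7.11 in the distal arrays, against 4.29, 4.201 and 4.18 in the proximal arrays. The proximal arrays were under 4.78, so the distal level was at least 6.1-fold higher. Genes of osteoclasts, the cells that resorb bone, were collected after the values had been seen, and 6 of 11 were higher. Atp6v0d2, a subunit of the osteoclast proton pump, was at 7.98, 7.92 and 7.86 in the distal arrays, against 5.47, 5.41 and 5.56 in the proximal arrays. Acp5, the tartrate-resistant acid phosphatase, and Mmp9, a gelatinase, were higher by 2.15 and 1.92, and Ocstamp, a protein of cell fusion, at least 1.7-fold. The receptor genes Tnfrsf11a, Calcr and Oscar and the factor Nfatc1 did not pass the test. For Nfatc1 this holds for the probe set used, while 2 of its 5 probe sets were called higher distally.

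Ambn, which encodes the enamel protein ameloblastin, was at 8.63, 8.63 and 8.69 in the distal arrays, against 6.44, 5.89 and 6.15 in the proximal arrays. The groups were 5.62-fold apart. Odam, a secreted protein of ameloblasts, was at least 2.37-fold higher. The rest of the enamel list, put together after the values had been seen, did not follow: Amelx was at 0.07 (adjusted p = 0.693), and Enam, Amtn, Mmp20 and Klk4 were under 4.78 in both pieces.

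Among 8 mast cell genes 5 were called higher and 1 lower. Cma1, the mast cell chymase, was at 10.07, 9.98 and 10.12 in the distal arrays, against 7.93, 7.85 and 7.77 in the proximal arrays. It was 4.61-fold higher distally. Cpa3, the mast cell carboxypeptidase, was higher by 1.97, Hdc, which makes histamine, by 1.63 and the protease Mcpt4 by 0.69. The member called lower was Kit, the stem cell factor receptor that other cells carry too, at -0.26. Of 13 macrophage genes 6 were higher and none lower, with Cd68 at 0.73 and Ptprc, the common leukocyte antigen, at 0.69, but the complement genes C1qa, C1qb and C1qc differed by 0.13 or less and did not pass. Vessels and blood showed smaller differences. Of 12 endothelial genes 3 were higher and 1 lower, all between -0.28 and 0.43. This share is near the 33.7% of all genes called and is no result about vessels. Of 9 erythroid genes only Hbb-y was called, at -0.13, and not after arrays were centred on their medians.

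Cartilage ran against bone. Of 20 cartilage genes 11 were lower distally and 1 was higher, with a median of -0.61. Col2a1, the main collagen of cartilage, was at 11.14, 11.04 and 11.12 in the distal arrays, against 12.31, 12.22 and 12.10 in the proximal arrays. It was 2.16-fold lower. Col9a1 and Col9a3, chains of a collagen on its fibrils, were at -0.87 and -1.26, and the proteoglycan Epyc at -1.36. Sox9, the factor that starts cartilage, did not pass the test, at -0.26 (adjusted p = 0.16), and Sox6, its partner, was the member called higher, by 0.44.

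Skeletal muscle genes lay below 0 in most cases, with a median of -0.48, yet 23 of 27 did not pass the test. Called lower were Tnnt3, a fast-fibre troponin, at -1.11, Ckm, muscle creatine kinase, at -0.87 and Myf6, a muscle-determining factor, at -0.82. Pax7, of muscle stem cells and cranial crest, was higher by 0.66. Among loose connective tissue genes 3 of 10 were higher, a share near the 21.3% of all genes and no result about the list. Dpt, the matrix protein dermatopontin, was at 10.04, 10.21 and 10.09 in the distal arrays, against 7.79, 8.26 and 8.15 in the proximal arrays. Twist2, a factor of dermis, was higher by 1.18, and the abundant collagen-binding genes Dcn and Lum did not pass. Kera, a proteoglycan of tendon and cornea, was higher by 1.90 while the tendon factor Scx was lower by 0.40 log2 units, though not without proximal array 1.

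Genes that pattern the face were unevenly placed. Of 7 regulators of frontonasal mesenchyme 5 were higher and 1 lower. Pax3, a paired-box factor of neural crest, was at 8.82, 8.86 and 8.77 in the distal arrays, against 6.96, 6.93 and 7.01 in the proximal arrays. The homeobox genes Msx1 and Msx2, which share functions in skull and teeth, had opposite signs. Msx1 was at 11.00, 10.99 and 10.86 in the distal arrays, against 9.54, 9.53 and 9.56 in the proximal arrays, while Msx2 was at 7.35, 7.25 and 7.30 in the distal arrays, against 8.53, 8.45 and 8.40 in the proximal arrays. The differences were 1.41 (SE 0.23, adjusted p = 1.24e-06) for Msx1 and -1.16 (SE 0.22, adjusted p = 4.14e-05) for Msx2, without overlap of the groups in either gene. Tfap2a, a crest and ectoderm factor, was higher by 0.90.

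In the list of proximal arch patterning 3 of 8 were lower, against 12.3% of all genes. They were Nr2f1 by 0.74, Nr2f2 by 0.58 and Meis2 by 0.34 log2 units, and Nr2f1 lost its call without the arrays of replicate number 3. The single member called higher was Pou3f3, at 0.94. The Meis2 arrays overlapped between positions, and 1 of its 4 probe sets was called higher distally. Meis2 lost its call when its probe sets were averaged, and without distal array 1 or 3 or proximal array 3. Of the distal arch list 2 of 7 were higher, a share near the 21.3% of all genes and no result about the list. They were Dlx3 (0.85) and Dlx5 (0.44, a call lost under the replicate block, the robust fit and without any single one of the 6 arrays). Hand2 was lower, at -0.91. Among 14 Hox genes, which are silent in the first arch's crest and mark regions behind it, Hoxd1 alone was called lower. It was at 7.24, 7.28 and 7.15 in the distal arrays, against 9.16, 9.12 and 9.26 in the proximal arrays. Hoxd3 was called higher, by 0.40, a call lost under array quality weights (adjusted p = 0.0649) and without distal array 1 or 2 or proximal array 1 or 3, and 5 Hox genes were under 4.78 in both pieces.

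The Zic family of zinc finger factors, collected after its values had been seen, was lower for 4 of 4. Zic1 was at 7.55, 7.63 and 7.15 in the distal arrays, against 10.29, 10.41 and 10.45 in the proximal arrays. For Zic2 the distal arrays were under 4.78, so it was at least 6.72-fold lower, and likewise Zic5 at least 5.65-fold. Oc90, a protein of the inner ear's otoconia and of the choroid plexus, was at 5.90, 5.80 and 6.02 in the distal arrays, against 9.83, 9.68 and 9.68 in the proximal arrays. Other genes of that list were not alike: Tecta and Otog were lower by 0.98 and 0.60 log2 units, Clic6 was higher by 1.08, and Ttr was at -0.69 (adjusted p = 0.563).

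Palate regulators were higher for 8 of 18 and lower for 1, against 21.3% and 12.3% of all genes. Shox2, of the anterior palate, was at 11.39, 11.39 and 11.38 in the distal arrays, against 10.48, 10.45 and 10.40 in the proximal arrays. Tbx2 (0.68), Fgfr2 (0.67) and Gli3 (0.44) were also higher. Sim2, a factor whose loss in mice cleaves the secondary palate, was lower, at 6.498, 6.53 and 6.38 in the distal arrays, against 8.02, 8.004 and 7.91 in the proximal arrays. Of 21 tooth genes 8 were higher and 1 lower, against the same shares of all genes. Lhx8, a LIM homeobox factor of oral mesenchyme, was at 10.65, 10.77 and 10.73 in the distal arrays, against 9.48, 9.37 and 9.38 in the proximal arrays. Its relative Lhx6 was higher by 0.86 and Sostdc1, a secreted Wnt and Bmp antagonist of tooth buds, by 0.80.

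Among signalling pathways, Wnt and hedgehog genes were higher. Of 11 Wnt targets 9 were higher and none lower, with a median of 0.58. Axin2, a feedback inhibitor of Wnt signalling, was at 8.73, 8.62 and 8.57 in the distal arrays, against 8.18, 8.04 and 7.94 in the proximal arrays. Sp5, Rnf43 and Apcdd1 were higher by 1.06, 0.97 and 0.91. Of 7 hedgehog genes 6 were higher, all but Foxl1 at -0.13 (adjusted p = 0.534). The ligand Shh was higher by 0.79, its receptor and target Ptch1 by 0.65 and the target Gli1 by 0.59, with Gli1 at 8.50, 8.48 and 8.52 in the distal arrays, against 8.05, 7.86 and 7.82 in the proximal arrays. Bmp targets were split, 2 higher and 2 lower of 9, with Smad6 at 0.50 and Id4 at -0.69. Of 9 Fgf targets 4 were higher and 1 was lower, none differing by more than 0.32. In the retinoic acid pathway the degrading enzymes differed in sign, Cyp26b1 at 0.90 and Cyp26a1 at -0.62. Aldh1a1, an enzyme of retinoic acid synthesis, was at 8.19, 8.29 and 8.21 in the distal arrays, against 6.82, 6.64 and 6.35 in the proximal arrays. Its groups do not overlap, but with the spread pooled over all 60 arrays it did not pass (adjusted p = 0.055). In the Notch list 10 of 13 genes were not called. Those called were Hey2 (-1.60), Dll3 (-0.67) and Hey1 (0.31), the last pair losing their calls without distal array 1 or 3 or proximal array 3. The receptor gene Notch3, not in that list, was called higher by 0.17, a call lost without distal array 2 or proximal array 3. Read against the 33.7% of all genes that were called, the counts of the Bmp, retinoic acid and Notch lists are no result about those pathways.

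Cell cycle genes were all higher distally, 19 of 19, by small and even amounts between 0.17 and 0.43. Aurka, a kinase of the mitotic spindle, was at 10.05, 10.05 and 10.14 in the distal arrays, against 9.76, 9.58 and 9.61 in the proximal arrays. Top2a, which untangles DNA before division, was at 12.61, 12.52 and 12.58 in the distal arrays, against 12.25, 12.27 and 12.18 in the proximal arrays. The distal arrays were above the proximal ones in both. CCAAT, a motif bound by the factor NF-Y, is common in promoters of genes of mitosis. For 17 of these 19 genes a promoter was matched, with 18 windows, of which 16 (88.9%) held CCAAT on either strand, against 37.4% of all windows. The windows of Aurka and of Bub1b, a checkpoint kinase of mitosis that was higher by 0.42, show the match in capitals. These genes are the called members of smallest p that hold it. A match is a description of letters, not of use, and its part in these differences was not tested.
Aurka, chr2:172370521-172370820, minus strand: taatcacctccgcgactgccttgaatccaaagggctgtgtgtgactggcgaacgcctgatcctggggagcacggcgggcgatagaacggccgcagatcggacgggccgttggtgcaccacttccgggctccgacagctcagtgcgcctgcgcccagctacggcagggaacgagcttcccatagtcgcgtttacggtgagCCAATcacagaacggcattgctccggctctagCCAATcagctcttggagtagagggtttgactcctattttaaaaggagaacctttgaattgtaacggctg
Bub1b, chr2:118597961-118598260, plus strand: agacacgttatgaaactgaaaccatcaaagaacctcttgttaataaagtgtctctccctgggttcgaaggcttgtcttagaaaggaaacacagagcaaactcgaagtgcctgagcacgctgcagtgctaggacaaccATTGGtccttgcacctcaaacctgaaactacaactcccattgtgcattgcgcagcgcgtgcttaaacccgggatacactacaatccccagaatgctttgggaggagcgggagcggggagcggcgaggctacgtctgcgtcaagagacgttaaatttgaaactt

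Markers of neighbouring organs were looked at for tissue carried along with either piece. Pituitary genes were lower for 3 of 5, against 12.3% of all genes. Pomc, the precursor of corticotropin, was at 7.06, 6.87 and 6.96 in the distal arrays, against 8.68, 8.50 and 8.63 in the proximal arrays. Cga and Lhx3 were lower by 0.98 and 0.49 log2 units, Lhx3 without a call when its probe sets were averaged. In the eye and lens list, Rlbp1, a retinoid carrier of the retina, was the single member called, at -2.39, and the lens crystallins Cryba1 and Cryba4 were under 4.78 in both pieces. Olfactory genes had 3 higher and 4 lower of 12, against 21.3% and 12.3% of all genes. The share higher is near that of all genes and is no result about the list. Gnal, a G protein of olfactory neurons and other neurons, was at -3.30, and Omp, which marks mature olfactory neurons, at -0.01 (adjusted p = 0.953). Brain genes did not move as a group, with 1 higher and 1 lower of 11, against the same shares of all genes. Among adipocyte genes Pparg (0.88) and Cebpa (1.12), both fat cell factors with other roles, were higher, of 4 measured, and Adipoq was under 4.78 in both pieces. Gland genes were higher for 2 of 7, Elf5 (1.34) and Barx2 (0.31), and pigment cell genes for 1 of 8, Mitf (0.63), with Tyrp1 lower (-0.53), and these gland and pigment shares are near or under the 21.3% of all genes called higher, so they are no result about those cells. Barx2 lost its call without distal array 1 or 2 or proximal array 1. Mural cell genes had 2 higher and 2 lower of 9, against 21.3% and 12.3% of all genes. Agr2, Rsph4a, Ms4a2 and Neurod6 are counted as called in their lists although both of their means were at or under 4.78. Xist and the Y-linked Eif2s3y were both well above 4.78 in every array, with Xist at 12.18 distally against 12.21 proximally and Eif2s3y at 7.48 distally against 6.95 proximally, and neither passed the test. With only the 6 arrays compared in the fit, Eif2s3y was called higher distally (limma adjusted p = 0.00135), and with only the arrays of batch 2 as well (adjusted p = 0.000751). The part of sex make-up in the other differences was not tested. Early response and heat shock genes were higher for 4 and lower for 2 of 12, against 21.3% and 12.3% of all genes. Fos and Hspa1b were higher by 0.82 and 0.71, and Hsph1 was lower by 0.32 log2 units. What part these tissues have in the differences above was not tested.

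The position difference at E14.5 was set against that at E13.5 in the same jaw and batch. The change was called for 1290 genes (7.09%), 742 upward and 548 downward. The upward excess was not stable: a repeated quantile normalization gave 574 upward and 684 downward, and the upward count was 423 to 470 without distal E13.5 array 2, proximal E13.5 array 1, distal E14.5 array 1 or proximal E14.5 array 3. Among the largest were skin, bone and cilium genes upward and neuronal genes downward. Krt1 had means of 9.94 distally against 6.85 proximally in the maxilla at E14.5, and 8.15 distally against 7.31 proximally at E13.5. Its position difference was 0.85 at E13.5 and 3.09 at E14.5. Dmp1 had means of 11.22 distally against 9.27 proximally in the maxilla at E14.5, and 6.02 distally against 6.37 proximally at E13.5. The difference of Dmp1 did not pass at E13.5 (adjusted p = 0.431). Dynlrb2 had a position difference of 0.11 at E13.5 and 2.57 at E14.5, and Deup1 of 0.05 and 2.27. Mmp13 was under 4.78 in both pieces at E13.5. Six6, an eye and pituitary factor, was under 4.78 distally at both ages, and in the proximal piece it was at 7.54 at E13.5 and 5.35 at E14.5, where its position difference was not called.

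Of the neuronal genes, Prph had means of 6.93 distally against 12.80 proximally in the maxilla at E14.5, and 10.26 distally against 12.31 proximally at E13.5. Its proximal means were closer to each other than its distal means. Nefm, Nefl, Sncg and Ret had position differences of -1.61, -1.55, -2.27 and -2.18 at E13.5, against the values of -5.38, -4.53, -5.99 and -5.18 at E14.5. The change was called downward for 13 of 16 sensory neuron genes and upward for 14 of 17 surface epithelium genes. Ciliated-cell genes had 9 upward and 1 downward of 21, and bone genes 3 upward of 12. Of all 18193 genes, 742 changed upward and 548 downward from E13.5, and 1456 upward and 1011 downward from E12.5. Set against E12.5 the same lists changed otherwise: sensory neuron genes had 8 upward and 2 downward, surface epithelium 4 upward and 2 downward, ciliated-cell genes 10 upward and bone genes 7 upward.

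**Figure D4:**
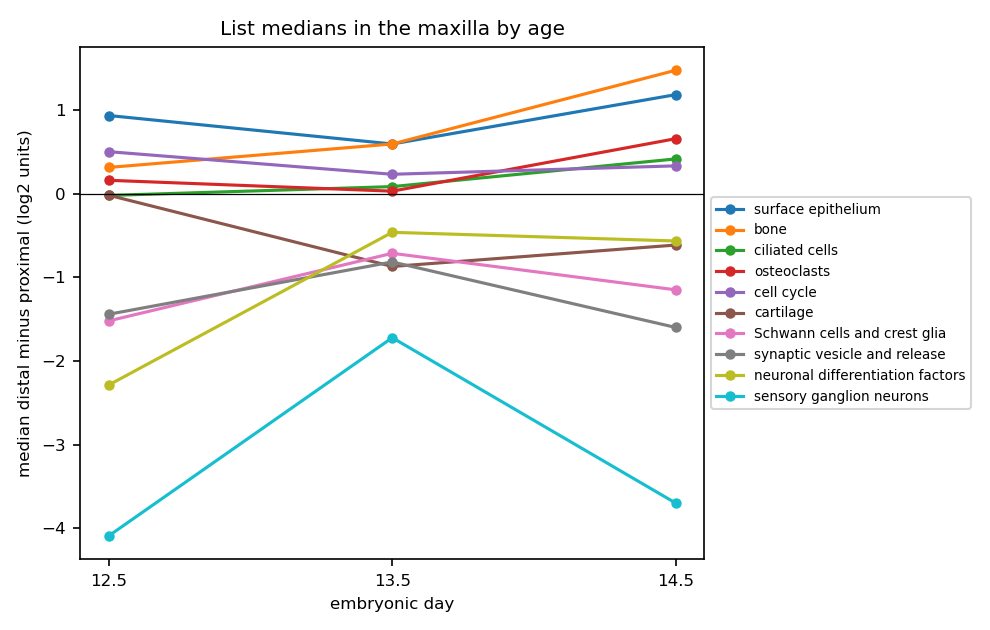
Median distal minus proximal difference (log2 units) of 10 gene lists in the maxilla at E12.5, E13.5 and E14.5. The sensory neuron median was -4.09, -1.72 and -3.70 at the 3 ages, while the bone median was 0.32, 0.60 and 1.48.

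Against E12.5, the change was called for 2467 genes (13.6%), 1456 upward and 1011 downward. The 5 largest upward changes were in genes that were much lower distally at E12.5. Neurod1, a factor of newly formed neurons, had means of 7.42 distally against 7.98 proximally in the maxilla at E14.5, and 6.61 distally against 11.83 proximally at E12.5. Its position difference was -5.22 at E12.5 and did not pass at E14.5 (adjusted p = 0.264). Neurod4, which acts in the same cells, was at 8.54 in the proximal piece at E12.5 and under 4.78 in all other groups. Mreg and Cdhr1 had differences of -5.11 and -4.55 at E12.5, against -0.45 and 0.11 at E14.5, while Ppp1r17 was under 4.78 distally at both ages and at 11.66 at E12.5 and 6.17 at E14.5 in the proximal piece.

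The 5 largest downward changes were in genes that were near equal, or higher distally, at E12.5. Oc90 had means of 5.91 distally against 9.73 proximally in the maxilla at E14.5, and 5.87 distally against 6.00 proximally at E12.5. Reg3b had a position difference of 0.36 at E12.5. Hoxd1 was higher distally by 0.93 at E12.5 and lower at E14.5, and so was Grm7, a glutamate receptor, at 1.25 and -1.93. Tbx22, a palate factor, was higher by 2.45 at E12.5 and did not pass at E14.5. Of the 18 palate regulators 10 changed downward, with a median of 0.81 at E12.5 and 0.21 at E14.5. Of 15 neuronal differentiation factors 7 were lower at E14.5 and 11 changed upward. Over all 18193 genes, 1011 changed downward and 1456 upward.

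In the mandible at E14.5, distal and proximal pieces were arrayed in batch 1 and the maxilla in batch 2, so each position difference was formed within a batch, but a scale of signals that differs by batch cannot be told apart from jaw. The 2 position differences differed for 4110 genes (22.6%), 2185 upward and 1925 downward in the maxilla relative to the mandible. Bpifa1 had means of 10.85 distally against 7.99 proximally in the maxilla at E14.5, and 3.67 distally against 5.10 proximally in the mandible. Its sign was opposite in the jaws. Ret had means of 6.31 distally against 11.48 proximally in the maxilla at E14.5, and 7.21 distally against 7.22 proximally in the mandible. Isl1 was lower distally in the maxilla by 3.64 log2 units and higher in the mandible by 0.74. Jakmip2 also had opposite signs, -2.82 in the maxilla and 1.52 in the mandible.

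Patterning genes separated the jaws as well. Hand2, of the lower jaw's distal crest, had means of 6.48 distally against 7.39 proximally in the maxilla at E14.5, and 12.12 distally against 8.62 proximally in the mandible. Alx1 was higher distally in both jaws, by 0.67 in the maxilla and 4.86 in the mandible. Hoxa2 was under 4.78 in both pieces of the maxilla, and in the mandible it was under 4.78 distally and at 8.30 proximally. Matn1, a cartilage matrix protein, was lower distally in both jaws, by 1.47 log2 units in the maxilla and 5.34 in the mandible. Myl2, a myosin light chain of heart and slow muscle, was under 4.78 distally in both jaws and at 5.11 in the proximal maxilla against 10.06 in the proximal mandible. Aldh1a1 had a difference of 1.62 in the maxilla, and in the mandible it was under 4.78 distally and at 6.76 proximally.

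The lists put the jaws side by side, and over all 18193 genes 2185 differed upward in the maxilla and 1925 downward. All 16 sensory neuron genes had a position difference further down in the maxilla, with medians of -3.70 in the maxilla and -1.01 in the mandible. Bone genes had medians of 1.48 and -0.13, and the difference between jaws was called for 7 of 12. Ciliated-cell genes had 0.42 and -0.02, called for 10 upward of 21. Cartilage genes were lower distally by more in the mandible, with -0.61 in the maxilla and -1.57 in the mandible, called for 14 of 20. For surface epithelium the medians were 1.19 and 0.81, and 8 of 17 genes differed between jaws. Cell cycle genes had 0.33 and 0.09, called upward for 13 of 19. Of 4 sex-linked genes the Y-linked Eif2s3y and Kdm5d also differed between the jaws, with Eif2s3y at 0.54 in the maxilla and -2.35 in the mandible, and the part of sex in the jaw comparison was not tested. The E13.5, E12.5 and mandible comparisons all use the same 6 arrays of the maxilla at E14.5, and their results are therefore not independent of one another.

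**Figure D5:**
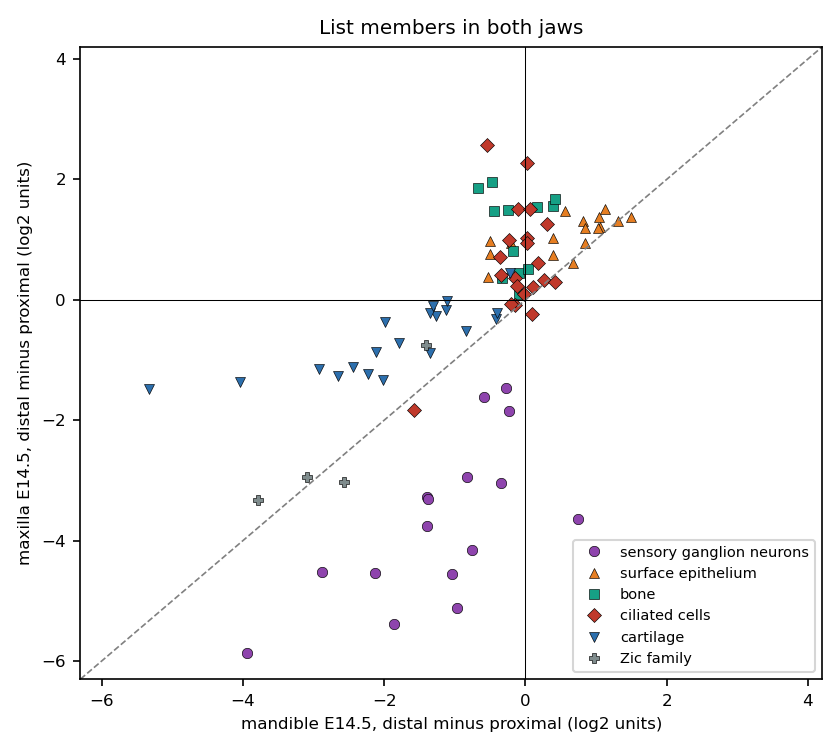
Distal minus proximal differences at E14.5 (log2 units) in the maxilla (vertical) and the mandible (horizontal) for the members of 6 gene lists, with a dashed line where both are equal. Sensory neuron genes lie below the line, and bone and ciliated-cell genes lie mostly above it near a mandible difference of 0.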

How the data were processed

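The deposited table holds log2 signals of 45101 probe sets, which the authors made with RMA (background correction, normalization between arrays and summary over probes), per the submitters' processing notes. Neither the version of RMA nor whether all arrays were normalized together is stated in the sources used here. Values were used as deposited. Of the probe sets, 64 controls were left out, 34945 had a single gene symbol in the platform annotation, 932 several and 9160 none. Of those with a single symbol 34741 were matched to RefSeq by gene identifier. Each of the 18193 genes was taken from its probe set of highest mean over the 60 arrays, and 9010 genes had more than 1. A linear model with the 20 groups as terms was fitted with limma 3.58.1 in R 4.3.3, with 40 residual degrees of freedom and spread allowed to vary with level. Benjamini-Hochberg adjustment ran over all genes. Differences of differences are contrasts of the same fit.

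The genes named are the 15 called genes of largest difference in each direction with a mean of at least 6 in the higher group and no overlap of arrays (predicted gene models and sex-linked genes excepted), the 5 of largest change in each direction for each further comparison, and up to 4 called members of smallest p in each list (where fewer than 2 are called, up to 2 of highest level). Other list members in the text, and the genes of 7 lists beyond the first 46, were chosen after their values were seen. The members and all lists were chosen with earlier results of these data known. The fit was tested on simulated data. Alternatives were a repeated normalization, centring, other probe set rules, other sets of arrays, other estimates of spread, blocks and a stricter threshold. Promoter windows are those of RefSeq on GRCm38.p6, matched by symbol for 14452 of the genes tested.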

Additional observations from a re-analysis of the deposited data

Results flagged for a closer look

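The results that drew attention are differences of the position difference between ages or jaws, each tested in limma as a contrast of 4 groups and called at an adjusted p under 0.05. They are the 5 genes with the largest called change in each direction, so their sizes are selected to be large. In none of them is the cause tested. Groups of 3 arrays were not searched for single arrays that stand apart.

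Between E13.5 and E14.5 the difference moved upward by 2.90 for Mmp13, 2.59 for Six6, 2.46 for Dynlrb2, 2.30 for Dmp1 and 2.24 for Krt1. It moved downward, with log2 changes of -3.81 for Prph, -3.77 for Nefm, -3.71 for Sncg, -3.00 for Ret and -2.98 for Nefl.

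Between E12.5 and E14.5 the upward log2 changes were 5.29 for Ppp1r17, 4.90 for Neurod4, 4.66 for Neurod1, 4.66 for Mreg and 4.65 for Cdhr1. The downward ones were -3.69 for Oc90, -3.19 for Grm7, -3.00 for Reg3b, -2.89 for Hoxd1 and -2.81 for Tbx22.

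Relative to the mandible at E14.5 the maxilla's difference was further up by 4.83 for Myl2, 4.28 for Bpifa1, 3.91 for Hoxa2, 3.86 for Matn1 and 3.82 for Aldh1a1. It was further down with -5.17 for Ret, -4.40 for Hand2, -4.39 for Isl1, -4.34 for Jakmip2 and -4.19 for Alx1. Mmp13, Six6, Ppp1r17, Neurod4, Myl2, Bpifa1, Hoxa2 and Aldh1a1 each had at least 1 of the 4 group means at or under 4.78, so the size of their change is uncertain. Ret appears both in the change from E13.5 and in the comparison of the jaws, and both use the same 6 arrays of the maxilla at E14.5.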

How the results depend on the processing

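Of the 230 gene differences followed through the alternatives, no called one changed direction. The setting with every probe set as a unit was not followed by gene, nor were genes named outside the naming rules. The 30 leading genes kept their call in all 630 values computed for them. The medians of 7 lists lie so near 0 that their sign changed: autonomic neurons (-0.03, from -0.43 to 0.05), Bmp targets (0.09, from -0.02 to 0.12), enamel (0.07, from -0.03 to 0.19), eye and lens (0.03, from -0.03 to 0.06), olfactory (0.05, from -0.03 to 0.10), proximal arch (-0.02, from -0.05 to 0.0056) and retinoic acid (-0.01, from -0.09 to 0.04). The counts of called genes at E14.5 were within 1.5 times of those given above (3877 higher, 2246 lower, 218 and 588 at least 2-fold) except with every probe set as a unit, which gave 6219 higher, 3956 lower and 1058 at least 2-fold lower, over more units. That setting also gave 888 downward changes from E13.5 and 3383 downward against the mandible. The counts of changes depended more on the settings. With only the arrays compared in the fit, 1366 changes from E13.5 were upward; with only their batches, 1654 were upward and 850 downward, and 1597 downward from E12.5. Array quality weights gave 3376 upward and 1379 downward from E13.5, 2676 and 2383 from E12.5, and 3563 upward against the mandible. At an adjusted p under 0.01, 304 were upward from E13.5, 568 downward from E12.5 and 1417 upward against the mandible. A repeated quantile normalization turned the split from E13.5 to 574 upward and 684 downward, against 742 and 548 as deposited, and centring on medians gave 1016 and 545. Centring moved the median of all genes by 0.019. The causes of these shifts were not tested.

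Leaving out 1 array or 1 replicate number at a time gave 2843 to 3666 genes higher and 1880 to 2126 lower, with 209 to 244 and 579 to 603 at least 2-fold. From E13.5 it gave 222 to 830 upward and 347 to 517 downward, from E12.5 876 to 1405 and 461 to 1024, and against the mandible 1199 to 2265 and 1411 to 1862. Without distal E13.5 array 2, proximal E13.5 array 1, distal E14.5 array 1 or proximal E14.5 array 3, the upward changes from E13.5 were 460, 470, 426 and 423 in number. Same-numbered distal and proximal arrays deviated from their group means with correlations of 0.235, -0.293 and -0.318, and only number 1 matched its own number best. With only 3 arrays a group, this cannot show whether the numbers pair the arrays. With the replicate block, 3842 genes were higher and 2233 lower (218 and 588 at least 2-fold), and the changes were 696 and 539 from E13.5, 1416 and 974 from E12.5, and 2124 and 1903 against the mandible. A random block gave 3901 and 2263, with a consensus correlation of 0.017. Under the replicate block, Dlx5 and Plvap lost their call. Without a single array the calls of Abcc9, Barx2, Dll3, Dlx5, Etv5, Hbb-y, Hey1, Hoxd3, Id1, Kdr, Meis2, Notch3, Plvap, Rarb, Rgs5, Ric8b, Scx, Six3 and Tie1 were lost in at least 1 case, and without a replicate number also those of Lhx3, Nr2f1, Otog and Pax7. Averaged probe sets ended the calls of Abcc9, Etv5 (-0.07 in place of -0.24), Lhx3, Meis2 and Six3, centring those of Etv5 and Hbb-y, a fit without the trend that of Hbb-y, the robust fit that of Dlx5, and array weights that of Hoxd3. With only the arrays compared, Hbb-y lost its call, and Eif2s3y and Hba-x gained one there and in the fit to batch 2. Bfsp1, not called above, was called under repeated quantile normalization, centring, array weights and the fit to batch 2. A floor at the 40th percentile (5.652 in place of 4.78) put a group of 13 leading genes at or under it. Signal near background limits what can be said of such genes, and 2936 genes were at or under 4.78 in both pieces.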

Other observations

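Genes that lie next to each other on a chromosome and differed in the same direction by at least 2-fold were looked up after the values had been seen, and are given as values only. In the type I keratin cluster on chromosome 11, the 4 neighbouring genes Krt13, Krt15, Krt19 and Krt14 were all higher distally, by 1.69, 1.38, 1.41 and 1.38. These keratins are used in the basal layer and in lining epithelia. On chromosome 18 the 6 neighbouring genes of desmosomal cadherins, Dsc3, Dsc2, Dsc1, Dsg1a, Dsg1b and Dsg2, were higher, by 1.58, 1.46, 1.57, 2.48, 1.002 and 1.05. Their products join epithelial cells to one another. Krt13, Dsc1 and Dsg1a were under 4.78 proximally and Dsg1b in both pieces, so the sizes of these 4 differences are uncertain.

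Lower distally were 2 such runs on chromosome 2 with genes of voltage-gated sodium channels. In the first, Scn3a and Scn2a differed by -1.44 and -1.19 and the adjoining Csrnp3 by -1.34. In the second, Scn9a and Scn7a lie beside B3galt1 at -1.09 and Stk39 at -1.11. A run of 3 genes on chromosome 5, Shisa3, Atp8a1 and Kctd8, differed by -2.43, -1.43 and -2.39.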
